A study of Mus musculus with 13 samples.

Results

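ATAC-seq peaks that were called in 1 library and in no other were examined in 13 libraries of cultured mouse oligodendrocyte precursor cells (OPCs). Members were chosen from the calls themselves. Peaks with an overlap of 1 bp or more, from whichever library, were fused into merged peaks, and a merged peak was kept when peaks of exactly 1 library touched it. This rule selected 42963 of 99746 merged peaks (43.1%), made from 8.80% of the 487975 called peaks, and they covered 21.2 of 97.5 Mb. The other 56783 merged peaks, found in 2 to 13 libraries, are called shared peaks. OPCs had been isolated on a PDGFRα antibody from P5 to P7 pups of litters labelled AMGFAP-Cre;K27M, a driver that the paper names hGFAP-Cre. Tissue was pooled by region and genotype, and the OPCs were held undifferentiated in proliferation medium before freezing. K27M cultures carried a knock-in of the H3.3 K27M mutation at H3-3a, switched on by a GFAP promoter-driven Cre that is active in neural stem and progenitor cells, and controls were littermates. There were 3 control brainstem libraries (cultures 51, 59 and 61) and 3 K27M brainstem libraries (41, 59 and 61). There were 3 control telencephalon libraries (51, 59 and 61) and 4 K27M telencephalon libraries (41, 51, 59 and 61), where telencephalon stands for pooled cortex, corpus callosum and hippocampus. P-values over libraries measure the spread between these pooled cultures. The main tests treated libraries with the same culture number as independent.

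In ATAC-seq the Tn5 transposase inserts adapters into DNA that is not wrapped tightly in chromatin, and stretches with an excess of insertions are called as peaks. Active promoters are open in most cells and give strong peaks, whereas enhancers in introns and between genes are open in fewer cells and give weaker ones. OPCs are the dividing precursors of myelinating oligodendrocytes and keep the promoters of lineage genes such as Olig2, Sox10 and Pdgfra open. A peak missing from a list was not called in that library. The lists hold no read counts, so depth is unknown and a missing peak cannot be told apart from closed chromatin.

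The member with the highest fold enrichment on chromosomes 1 to 19, X and Y in each of 3 groups (K27M brainstem, control telencephalon and K27M telencephalon) is shown by the 300 bases at its centre, to let the kind of DNA behind the strongest single-library calls be read. Sequences are the plus strand of mm10, from the RefSeq copy of GRCm38.p6, and capitals mark matches to any of 7 transcription factor motifs that are spelled out with the motif counts.
K27M brainstem culture 59, chr5:81934651-81934950, intergenic: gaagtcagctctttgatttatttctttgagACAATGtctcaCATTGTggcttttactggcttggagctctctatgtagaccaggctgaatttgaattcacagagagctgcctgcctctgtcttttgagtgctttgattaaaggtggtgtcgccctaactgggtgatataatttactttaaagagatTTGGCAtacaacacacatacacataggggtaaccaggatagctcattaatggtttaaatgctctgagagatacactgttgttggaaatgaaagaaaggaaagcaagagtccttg
control telencephalon culture 61, chr12:37988114-37988413, intron of Dgkb: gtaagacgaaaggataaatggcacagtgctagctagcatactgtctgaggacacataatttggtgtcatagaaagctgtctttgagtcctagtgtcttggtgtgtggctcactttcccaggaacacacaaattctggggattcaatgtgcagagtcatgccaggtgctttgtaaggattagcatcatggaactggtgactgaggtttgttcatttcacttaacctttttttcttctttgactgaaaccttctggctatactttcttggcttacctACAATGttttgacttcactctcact
K27M telencephalon culture 51, chr17:71816364-71816663, intron of Clip4: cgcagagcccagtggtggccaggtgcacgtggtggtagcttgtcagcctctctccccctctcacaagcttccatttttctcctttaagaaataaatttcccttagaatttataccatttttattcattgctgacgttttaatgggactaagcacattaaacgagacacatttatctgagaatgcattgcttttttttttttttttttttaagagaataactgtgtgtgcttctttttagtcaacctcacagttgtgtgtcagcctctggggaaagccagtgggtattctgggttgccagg
The K27M brainstem window held 2 SOX matches and 1 NFI half-site, with 53.3% of its bases repeat-masked. The control telencephalon window held 1 SOX match, and the K27M telencephalon window held no match to the 7 motifs. No motif was common to the 3 windows.

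The number of single-library peaks differed widely between cultures. In control brainstem there were 2458 in culture 51, 2257 in culture 59 and 5564 in culture 61. In K27M brainstem there were 5876 in culture 41, 1998 in culture 59 and 1850 in culture 61. In control telencephalon there were 2686 in culture 51, 947 in culture 59 and 3712 in culture 61. In K27M telencephalon there were 3548 in culture 41, 6640 in culture 51, 2022 in culture 59 and 3405 in culture 61. Each group spanned a wide range and the 4 groups overlapped. The mean was 3305 ± 1739 (SD, n = 13), and the highest library had 7.01 times as many as the lowest. Called peaks of any kind ran from 16879 to 52466 per library, a 3.11-fold range. The 3 libraries with the most members held 42.1% of all members, and the 3 with the fewest held 11.2%. Members made up 5.64 to 12.8% of the merged peaks of a library.

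**Figure D1:**
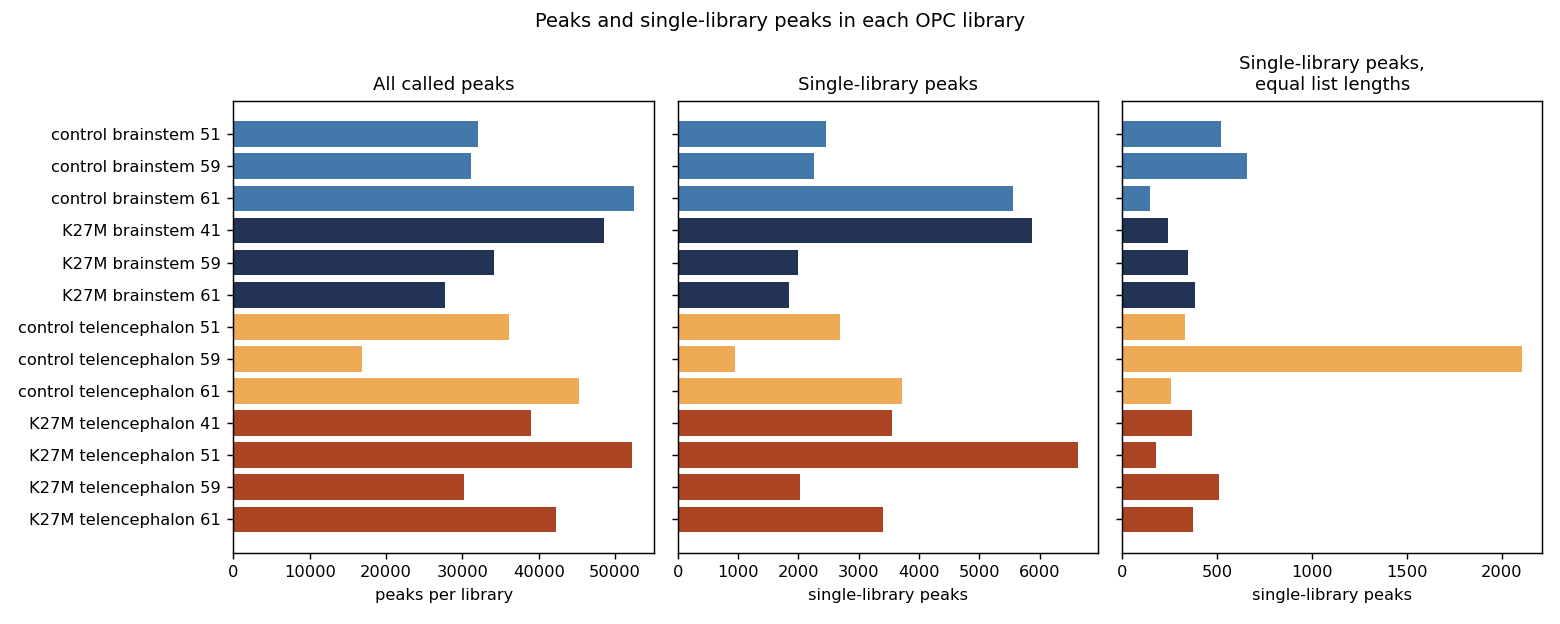
Horizontal bars give, for each of the 13 libraries (rows, coloured by group), the number of called peaks, the number of single-library peaks, and the number of single-library peaks after the lists were cut to the 16879 peaks of lowest p-value in each. K27M telencephalon culture 51 had the most members (6640) with the lists as deposited, and control telencephalon culture 59 the most (2108) at equal list lengths.

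List length and the number of members moved together, and the order turned round when list length was made equal. The longest lists, in control brainstem culture 61, K27M telencephalon culture 51 and K27M brainstem culture 41, also held the most members. Control telencephalon culture 59 had the shortest list and the fewest. With every list cut to the 16879 peaks of lowest p-value, 6424 of 30041 merged peaks (21.4%) were found in 1 library. Control telencephalon culture 59, whose list was kept whole, then held 2108 of them. The 3 libraries with the longest lists held the fewest, 147 in control brainstem culture 61, 177 in K27M telencephalon culture 51 and 244 in K27M brainstem culture 41. The other 9 libraries held 257 to 657. The cut stood at different p-values. At 1e-10 or lower, control brainstem culture 61 had 14488 peaks and control telencephalon culture 59 had 1072. Weak calls of the short list thus stayed while weak calls of the long lists left, so the turned order cannot be read apart from the cut. The number of members of a library and the length of its list cannot be told apart in these data.

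Neither region nor genotype separated the libraries. Since members were found in 1 library by rule, any opening common to the libraries of a region or genotype is outside these counts, and the comparisons concern only how many such calls a library gave and of what kind. Brainstem libraries held 3334 ± 1863 members (SD, n = 6) and telencephalon libraries 3280 ± 1777 (SD, n = 7), a ratio of 1.02 (two-sided exact permutation test within genotype, p = 0.97). K27M libraries held 3620 ± 1940 (SD, n = 7) and control libraries 2937 ± 1563 (SD, n = 6), a ratio of 1.23 (two-sided exact permutation test within region, p = 0.529). As a share of the library's merged peaks the differences were 0.0999 percentage points for brainstem minus telencephalon (exact permutation p = 0.949) and 0.937 points for K27M minus control (exact permutation p = 0.499). The K27M effect differed between brainstem and telencephalon by -0.92 on the log2 scale of the number (exact permutation p = 0.334). Median width, fold, −log10 p, promoter share and intergenic share of the members were compared in the same way. The 14 exact permutation tests had adjusted p-values of 0.925 to 0.97 (Benjamini-Hochberg). At equal list lengths the direction of both number ratios turned, to 0.65 for region and 0.513 for genotype, with exact permutation p-values of 0.739 and 0.301. In that setting control telencephalon culture 59 alone held 2108 of the 6424 members, and no other library held more than 657. The turned ratios therefore lean on 1 library, and ratios without it were not computed. Apart from it, telencephalon libraries held 177 to 509 and brainstem libraries 147 to 657. K27M libraries held 177 to 509 and the other control libraries 147 to 657. These ranges overlapped, so a turned direction is not shown without that library.

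Members were weak and narrow calls by the measures that also decided whether a peak was called at all, so these values are a description without a test. Fold enrichment, the deposited signal over the local background of the same library, ran from 1.59 to 5.38 among members. Its library medians were 2.34 to 2.80 for members and 2.74 to 3.19 for shared peaks. The library medians of −log10 p were 3.23 to 3.88 for members and 5.31 to 7.04 for shared peaks. Members were 216 to 2758 bp wide, with library medians of 329 to 455 bp against 649 to 882 bp for shared peaks. In their own lists, the median member stood between percentiles 9.32 and 11 of significance. A p-value of 1e-06 or lower was reached by 143 members (0.333%), against 37.2 to 58% of the shared peaks of each library. Of those 143 members, 44 were in control brainstem culture 61, 39 in K27M telencephalon culture 51 and 28 in K27M brainstem culture 41. A p-value of 1e-10 or lower was reached by 2 members.

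Many members of a library carried exactly the same deposited values. In each library 1 pair of fold and −log10 p recurred most, in 89 to 481 members (5.01 to 11.3% of the members). In K27M brainstem culture 41 this pair was a fold of 2.29 with a −log10 p of 2.94, found in 429 members. In K27M telencephalon culture 41 it was 2.49 with 3.07, found in 401 members. In 13 of 13 libraries the −log10 p of this pair was at or below the median of the members.

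On either side of the rule the values ran into each other. Merged peaks of 1 library had a median fold of 2.55, a median −log10 p of 3.43 and a median width of 401 bp. The 8832 merged peaks of 2 libraries had 2.59, 3.67 and 502 bp. The 13075 merged peaks of all 13 libraries had 3.53, 10.8 and 1086 bp. The step from 1 to 2 libraries was thus much smaller than the distance to the peaks of all libraries.

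**Figure D2:**
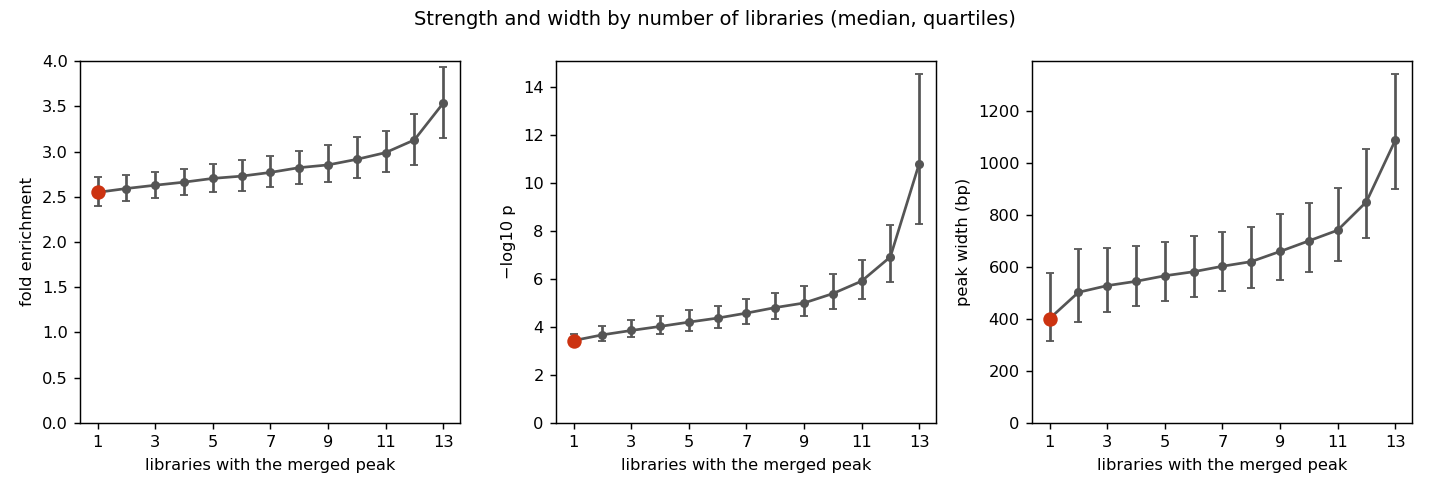
Median (points) and quartiles (bars) of fold enrichment, −log10 p and width in bp are plotted against the number of libraries in which a merged peak was found, from 1 (red) to 13. The median −log10 p was 3.43 at 1 library, 3.67 at 2 and 10.8 at 13.

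Members lay away from promoters. A promoter was taken as the stretch from 2 kb before to 1 kb after a transcription start, and a peak over a promoter was counted there before exon, intron and intergenic. Over the 13 libraries, 12 ± 0.783% (SD, n = 13) of members overlapped a promoter, against 44.6 ± 6.63% of the shared peaks of the same libraries. The share in introns was 43.9 ± 2.77% for members and 27.3 ± 3.18% for shared peaks. Intergenic DNA held 35.1 ± 2.98% and 23.1 ± 2.63%, and exons outside promoters held 8.91 ± 0.6% and 5.01 ± 0.859%. Each of these 4 differences had the same direction in 13 of 13 libraries (two-sided exact sign-flip permutation test over libraries, p = 0.000244, the smallest that 13 libraries can give). The libraries contain many of the same shared peaks, so their differences are not fully independent. The exon difference was no longer past the threshold among peaks with a p-value of 1e-10 or lower, at 1.66 points (exact sign-flip permutation p = 0.412).

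**Figure D3:**
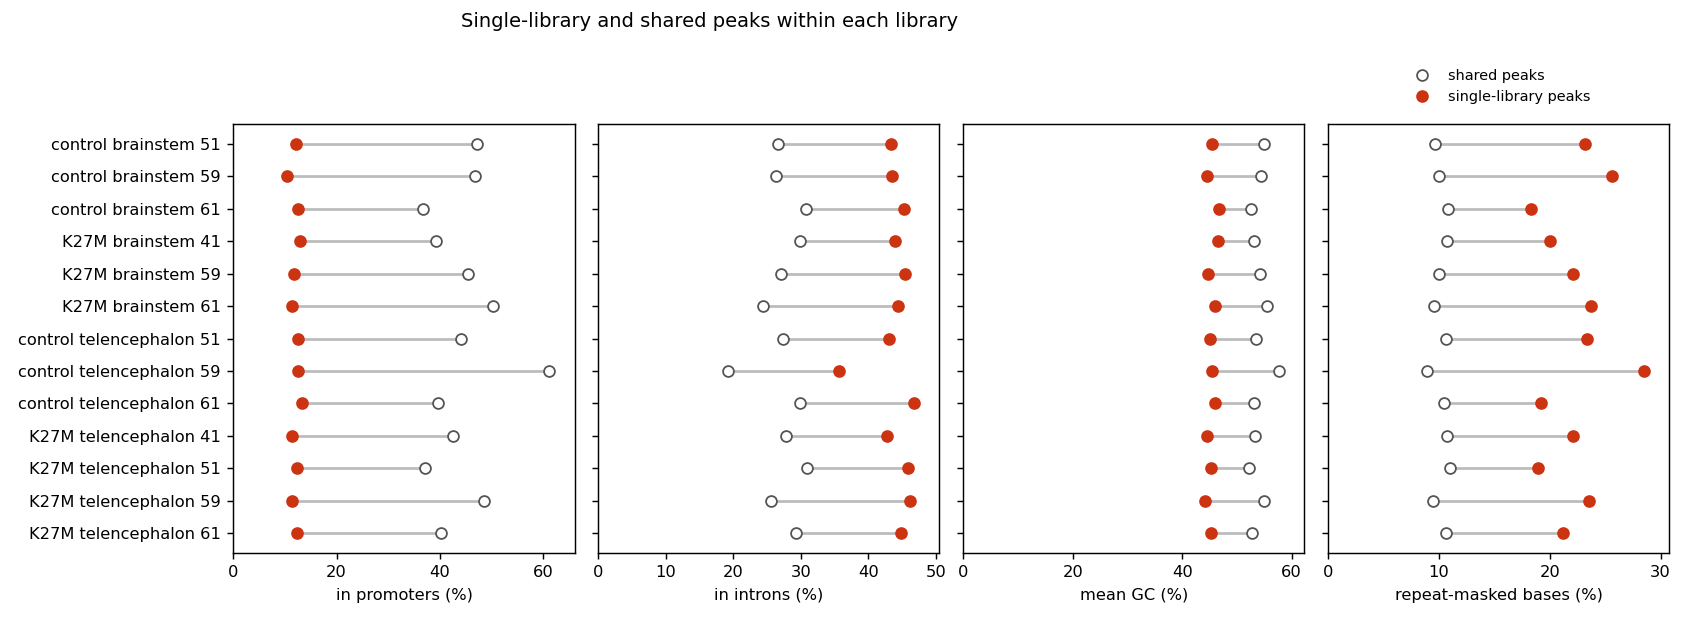
Within each library (rows), filled red points give the single-library peaks and open points the shared peaks for the percent in promoters, the percent in introns, the mean GC percent and the percent of repeat-masked bases, the last 2 over the central 300 bp. In 13 of 13 libraries members were lower in promoter share and GC and higher in intron share and repeat-masked bases.

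The promoter share of members hardly varied between cultures, whereas that of shared peaks did. Among members it ran from 10.5% in control brainstem culture 59 to 13.3% in control telencephalon culture 61. Among shared peaks it ran from 36.8% in control brainstem culture 61, the longest list, to 61.2% in control telencephalon culture 59, the shortest. Control telencephalon culture 59 was also the library with the fewest members in introns (35.7%) and the most in intergenic DNA (42.7%). At equal list lengths its members and those of the other libraries lay in promoters in 14.4 to 28.1% of cases, still under the 56.5 to 63.9% of the shared peaks.

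Counted over merged peaks, the promoter share was higher with each further library except from 9 to 10 (27% and 26.8%). It was 12.2% at 1 library, 15.3% at 2 and 69.4% at 13. The intron share was 44.5% at 1 library, 40.6% at 2 and 14.5% at 13, while the intergenic share was 34.3% at both 1 and 2 libraries and 12.6% at 13. The median distance from a member to the nearest transcription start was 11588 bp, against 6408 bp for shared peaks, and 45.9% of members and 58.8% of shared peaks lay within 10 kb. More than 100 kb from any start were 4.35% of members and 3.12% of shared peaks.

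**Figure D4:**
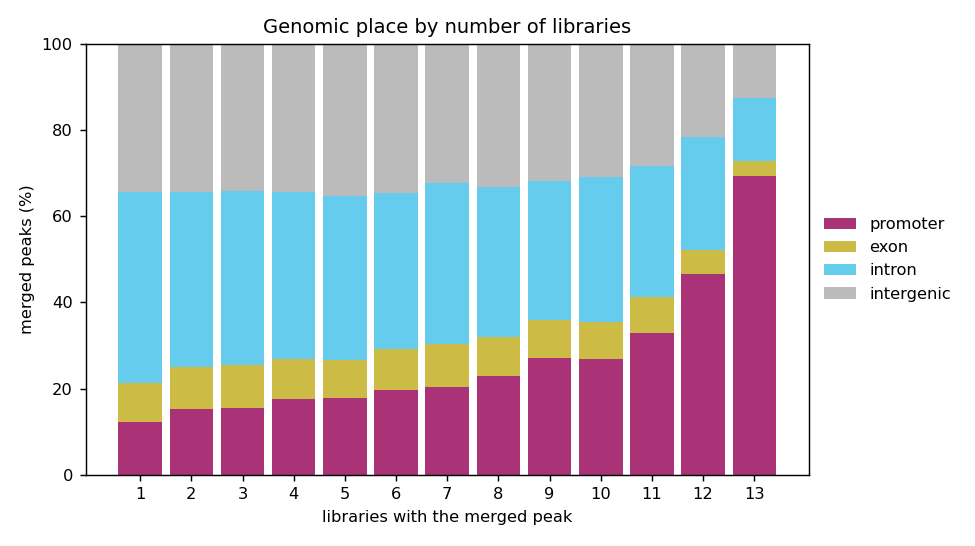
Stacked bars give the percent of merged peaks in promoters, exons, introns and intergenic DNA for each number of libraries in which a merged peak was found. The promoter part grew from 12.2% at 1 library to 69.4% at 13 libraries.

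The DNA under members was poorer in GC and richer in repeats. In the central 300 bp the mean GC content was 45.3 ± 0.77% (SD, n = 13) for members and 54 ± 1.5% for shared peaks, lower in 13 of 13 libraries (two-sided exact sign-flip permutation p = 0.000244). Repeat-masked bases made up 22.3 ± 2.86% and 10.2 ± 0.665%, higher in 13 of 13 libraries (exact sign-flip permutation p = 0.000244). Outside promoters the GC difference was smaller, -2.95 percentage points, while the repeat difference was 10.4 points, both with an exact sign-flip permutation p of 0.000244. The repeat-masked share of members was highest in control telencephalon culture 59 (28.5%) and lowest in control brainstem culture 61 (18.3%), the libraries with the shortest and the longest list. CpG dinucleotides averaged 3.31 per window in members, 4.08 in merged peaks of 2 libraries and 17.8 in those of all 13. Counted in the same way, mean GC was 45.5%, 46.8% and 58.6%, and repeat-masked bases made up 21.1%, 16.9% and 8.24%. In GC, members were thus close to merged peaks of 2 libraries.

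A small number of members were neighbours of shared peaks. Of all members, 1961 (4.56%) lay within 1 kb of a shared peak, whereas 703 shared peaks (1.24%) lay that close to another shared peak. Per library the shares were 5.39 ± 1.79% (SD, n = 13) and 0.838 ± 0.0853%, higher for members in 13 of 13 libraries. Closeness comes from the same coordinates whose merging set members apart from shared peaks. Its values are therefore given as a description, without p-values. This difference depended on the lists. At equal list lengths it was 0.0271 points, and with peaks of p at most 1e-10 it turned to -0.0231 points. At that cut several libraries kept 10 or fewer members, down to 2 in K27M brainstem culture 61. Their shares rest on very few peaks, so these values cannot decide whether the difference turned. In the lists as deposited, the share of members near a shared peak was lowest in K27M telencephalon culture 51, control brainstem culture 61 and K27M brainstem culture 41, at 2.32%, 2.64% and 2.74%.

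The 7 motifs were counted on both strands of the central 300 bp, each by itself, so that matches may overlap. AP-1 (TGANTCA, bound by FOS and JUN) was found in 10.2% of members, 9.74% of shared peaks and 9.94% of all merged peaks. SOX (ACAATG) was found in 17%, 15.9% and 16.4%. For both motifs the share of members was above that of shared peaks in 13 of 13 libraries, but outside promoters it was below when counted over merged peaks, at 10.5% against 11.9% for AP-1 and 17.3% against 19.3% for SOX. The ETS motif (CCGGAAG) was found in 1.23% of members, 4.1% of shared peaks and 2.86% of all merged peaks. The CTCF core (AGGGGGC) was found in 3.93%, 7.32% and 5.86%, the E-box CAGCTG, read by basic helix-loop-helix factors, in 17.2%, 21.9% and 19.9%, and CRE (TGACGTCA, bound by CREB and ATF factors) in 0.235%, 0.711% and 0.506%. These 4 were lower in members in 13 of 13 libraries, and outside promoters they were also lower. The NFI half-site (TTGGCA) was found in 16.4%, 17.1% and 16.8%, lower in members in 6 of 13 libraries. Outside promoters, counted over merged peaks, it was found in 16.4% of members against 19.5% of shared peaks. SOX and basic helix-loop-helix factors include the OPC regulators SOX10 and OLIG2, but a match describes letters and not binding.

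At genes, a promoter was counted for the members when a single-library peak and no shared peak overlapped it. This held for 2669 of 55536 genes (4.81%) and for 807 of 22028 protein-coding genes (3.66%). Shared peaks overlapped the promoters of 65.5% of protein-coding genes. The protein-coding promoters were spread over libraries in step with the members, from 20 in control telencephalon culture 59 to 151 in K27M brainstem culture 41, or 15.3 to 25.9 per 1000 members.

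The short gene lists gave few such promoters, and with 3.66% over all protein-coding genes a count of 0 or 1 in a list of 10 is near the background. Of 10 OPC markers, 0 had only a member at the promoter and 10 had a shared peak. Likewise 0 of 10 telencephalon transcription factors, 0 of 10 brainstem transcription factors, 0 of 10 housekeeping genes and 0 of 76 cytosolic ribosomal protein genes had only a member. Among markers of other cells the counts were 0 of 10 for astrocytes, 0 of 10 for microglia, 1 of 10 for neurons, 1 of 10 for endothelial cells and 1 of 10 for pericytes and fibroblasts. Germ cell genes gave 0 of 10 and mature oligodendrocyte markers 1 of 10. The promoter of Mobp, a myelin protein gene, had a peak in K27M brainstem culture 41 with a fold of 2.25. Neurod6, a transcription factor gene of cortical neurons, had one in K27M telencephalon culture 51 with a fold of 2.25. Pecam1, an endothelial adhesion gene, had one in the same library with a fold of 2.19, and Rgs5, a pericyte gene, had one in K27M brainstem culture 41 with a fold of 2.38. These 4 calls came from the 2 libraries with the most members and had −log10 p values of 3.07 to 3.28.

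Clustered protocadherins had the highest share among the gene lists, beside the 3.66% of all protein-coding genes. Of the 57 clustered protocadherin genes, which give neural cells a combinatorial surface identity, 17 (29.8%) had only a member at the promoter, 17 had a shared peak and 23 had no peak. Their 19 peaks came from 7 libraries, 13 from brainstem and 6 from telencephalon libraries, with folds of 2.29 to 3.05. Of all members, 23.9% were in control brainstem and 22.6% in K27M brainstem libraries. K27M brainstem culture 41 held such peaks at 7 genes and control brainstem culture 61 at 5, and both libraries had long lists. K27M telencephalon culture 51 also had a long list, and the most members, but held such peaks at 2 genes. Pcdha11 and Pcdha5 had peaks in K27M brainstem culture 41, with folds of 2.58 and 2.45. Pcdhb19 and Pcdhb2 had peaks in control brainstem culture 61, with folds of 2.89 and 2.67. Pcdhb3 had one in control brainstem culture 51, with a fold of 2.96. The genes of a cluster are alike in sequence and close together, so reads may be shared between copies, which was not tested.

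Hox genes, which set position along the body axis, gave 4 of 39 (10.3%), and 23 had a shared peak. Hoxb8 had its peak in control brainstem culture 51 with a fold of 2.68. Hoxc10 had its peak in K27M brainstem culture 41 with a fold of 2.45. Hoxc9 and Hoxd11 had theirs in K27M telencephalon cultures 41 and 51, with folds of 2.52 and 2.30. These 4 peaks thus came from 4 libraries of both regions. Keratin genes, structural genes of epithelia, gave 5 of 49 (10.2%) in 5 libraries. They were Krt222, Krt24, Krt80, Krt86 and Krt87, with folds of 2.44 to 3.07.

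Receptor genes of the nose are silent in most other tissues. Of 1093 olfactory receptor genes, 20 (1.83%) had only a member and 17 had a shared peak, and of 329 vomeronasal receptor genes 3 (0.912%) had only a member and 1 had a shared peak, beside 3.66% of all protein-coding genes with only a member. The 20 olfactory peaks came from 8 libraries. Olfr10 had a peak in K27M telencephalon culture 41 with a fold of 2.49. Olfr1329 and Olfr1380 had peaks in control telencephalon culture 51, with folds of 2.53 and 2.77. Olfr1412 and Olfr1416, both on chromosome 1, had peaks in control brainstem culture 51, with folds of 2.55 and 2.65. The values of Olfr10 were the pair that recurred most in its library.

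Zinc finger Zfp genes gave 4 of 365 (1.1%), collagen genes 1 of 44 (Col22a1, in K27M brainstem culture 59) and cadherin genes 2 of 23 (Cdh15 and Cdh3, both in control brainstem culture 61). Voltage-gated potassium channel genes and ionotropic glutamate receptor genes, both used by OPCs in sensing neuronal activity, gave 0 of 22 and 0 of 16.

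The 2 members of highest fold in each library, 26 in all, had folds of 3.22 to 5.38 and −log10 p values of 5.41 to 11.6. Of these, 13 were intergenic, 10 lay in introns and 3 overlapped promoters, and 6 had a central window that was repeat-masked throughout. In control brainstem culture 61 a peak at chr1:153401819-153402087, 2739 bp from E330020D12Rik, had a fold of 4.33.

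Several of these strongest members overlapped a gene with known roles or had one as the nearest gene, at the distances given. In control telencephalon culture 51 a member in an intron of Zeb2 (chr2:45074920-45075353), a transcription factor required for myelination, had a fold of 3.22 and a −log10 p of 5.98. In control telencephalon culture 61 one in an intron of Dgkb (chr12:37988014-37988514), a diacylglycerol kinase, had a fold of 4.26, and one 1067 bp from Peg10 (chr6:4761585-4762523), an imprinted gene, had a fold of 4.21. In K27M brainstem culture 41 one in an intron of Ptk2b (chr14:66266445-66266723), a member of the focal adhesion kinase family, had a fold of 3.63. In K27M brainstem culture 59 one at the promoter of Usp3 (chr9:66530344-66530932), a deubiquitinase, had a fold of 3.61. In K27M telencephalon culture 41 one lay 185890 bp from Kcnj16 (chr11:110781743-110782142), a potassium channel gene, with a fold of 3.59. None of these genes was named in more than 1 library by this rule.

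Repeats and the Y chromosome made up another part of the 26. In control brainstem culture 51 the strongest member (chrX:80982913-80983131) had a fold of 4.39 and lay in a window masked throughout. The strongest members of control brainstem culture 59 (chrY:5919627-5919919, fold 4.11), control telencephalon culture 59 (chrY:5523049-5523331, fold 4.03) and K27M telencephalon culture 61 (chrY:6285132-6285428, fold 3.67) lay on Y within 1 Mb of each other. In repeats, reads can be placed at the wrong copy. A further 25 members lay on unplaced contigs and were outside the naming rule. Among them was the member with the lowest p-value (chosen after its value was seen), in K27M brainstem culture 41, with a fold of 5.01 and a −log10 p of 22.

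Members were spread over the autosomes much like shared peaks. Of the merged peaks on each autosome, 40.4 to 45.9% were members. On X it was 30.8%, with 3.17 members per Mb against 7.1 shared peaks per Mb. The Y chromosome held 51 members.

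Chromosomes X, Y and 1 differed between cultures and are described after their values were seen. On X lay 2.16% of the members of control brainstem culture 51, 3.21% of those of control telencephalon culture 51 and 1.97% of those of K27M telencephalon culture 51. The 10 libraries of cultures 41, 59 and 61 had 0.212 to 1.72%, all below. Shared peaks showed little of this, with 2.28 to 2.44% on X in culture 51 and 2.18 to 2.35% in the others. On Y the culture 51 libraries had 0 members and 0 to 2 shared peaks, while the other 10 libraries had 0 to 15 members and 8 to 57 shared peaks. The 2 libraries of culture 41 differed from each other. K27M telencephalon culture 41 had 1.72% of its members on X, with 0 members and 8 shared peaks on Y, whereas K27M brainstem culture 41 had 0.766% on X, with 3 members and 35 shared peaks on Y. Libraries of culture 59 had 0 to 15 members on Y. The high X and low Y values were thus common to the 3 libraries of culture 51, which include no K27M brainstem library. The cause was not tested.

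Control brainstem culture 51 stood apart on chromosome 1. There lay 296 of its members (12.1%), against 6.26 to 8.46% in the other 12 libraries. Its shared peaks on chromosome 1 made up 7.33%, close to the 6.69 to 7.08% of the others. The excess ran along the whole chromosome, since its share was above that of the other libraries together in 10 of 10 windows of 20 Mb, by 1.10 to 2.60 times. The cause was not tested.

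**Figure D5:**
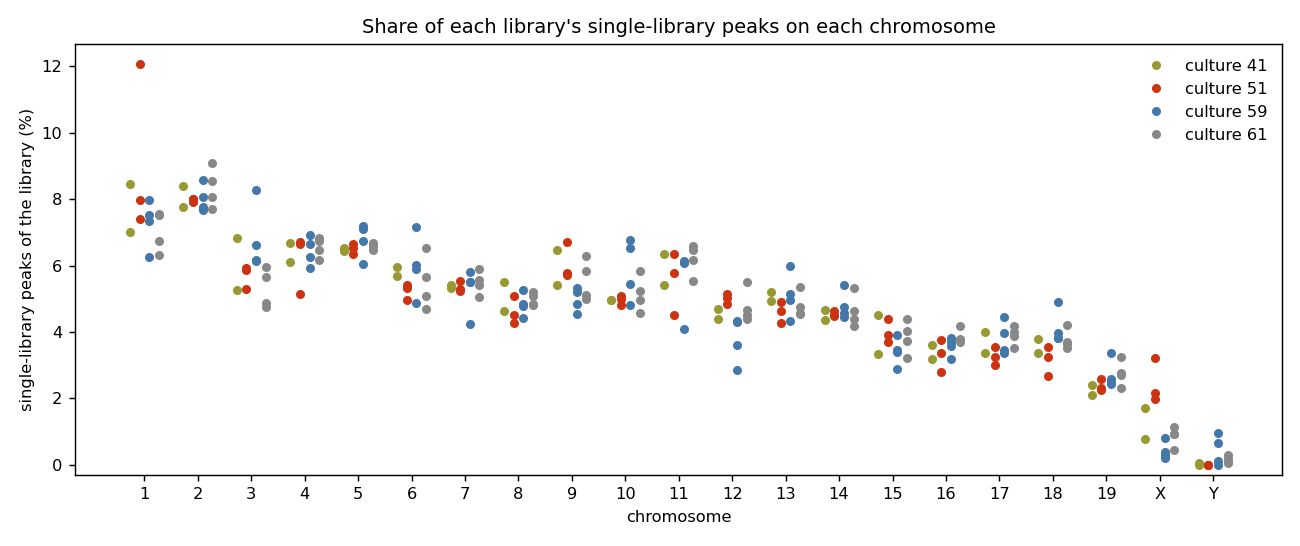
Each point is 1 library, coloured by culture number, and gives the percent of its single-library peaks that lie on chromosomes 1 to 19, X and Y. Control brainstem culture 51 stands out on chromosome 1 (12.1%), and the 3 libraries of culture 51 are the highest on X (1.97 to 3.21%).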

How the data were processed

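Omni-ATAC libraries were sequenced by the study in paired-end mode, and per the labels reads were trimmed with Trim Galore 0.6.7, aligned to mm10 with BWA 0.7.17-r1188 and given to MACS2 2.2.7.1. The authors removed blacklisted regions and called broad peaks in each library alone. The cutoff for these calls is not given in the sources used here. The deposited lists give fold enrichment (a ratio to the local background), −log10 p and −log10 q for each peak, and a deposited score that was not used beyond a format check. No value was scaled between libraries.

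Peaks were merged at an overlap of 1 bp in Python 3.11.15 with numpy 2.4.6 and scipy 1.17.1. Place came from GENCODE M21, and GC, repeat masking and motifs came from the central 300 bp in RefSeq GRCm38.p6. Region and genotype were compared over libraries by exact permutation (700 arrangements), and members with shared peaks by exact sign flips (8192), with a threshold of 0.05. The functions were tested on simulated data. In each library the 2 members of highest fold on chromosomes 1 to 19, X and Y were named, and up to 5 listed genes per list in alphabetical order. Sequences were printed for the member of highest fold on these chromosomes in each group, leaving out chromosome 18, and 1 member is not reported here. Members, lists and rules were chosen with earlier results of these data known. Alternatives were equal list lengths, p-value thresholds, other overlaps, other promoter definitions and annotation, the peak centre, leaving out each library and a replicate block. A restriction to peaks outside promoters was chosen after seeing the data.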

Additional observations from a re-analysis of the deposited data

How the results depend on the processing

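The lower promoter share and GC and the higher intron, intergenic and repeat-masked share of members kept their direction and their side of the threshold under every alternative in which they were computed. At p at most 1e-10 several libraries kept very few members, down to 2 in K27M brainstem culture 61, so that cut can decide little. In all, 135 of the alternative values outside leave-one-out, and 292 of those with 1 library left out, kept direction and call, while 19, 3 and 3 of the former turned round, moved or fell short of the threshold and 20 of the latter turned round. The total of 42963 members moved to 6424 at equal list lengths, 3683 at p at most 1e-10 and 5716 at p at most 1e-06, and was 39894 to 42210 with 1 library left out. The causes of the changes below were not tested. At equal list lengths 1 library, control telencephalon culture 59, held 2108 of the 6424 members. The turned effects on number and share in that setting lean on this library.

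At equal list lengths these effects turned round: number, by -0.62 (region) and -0.96 (genotype) on the log2 scale; share, by -1.23 and -1.94 percentage points; median fold by genotype, 0.0408; median −log10 p, 0.324 and 0.626; promoter share by region, 1.92 points; intergenic share by genotype, 3.71 points; and the difference of the genotype effect between regions, 0.54 (log2 number) and 2.52 points (share). At p at most 1e-10, where 8 libraries kept 10 or fewer members, these turned round: median width by region, 74.5 bp; median fold by region, -0.245; median −log10 p, 0.0489 (region) and 0.0277 (genotype); promoter share by genotype, 18.9 points; intergenic share by region, 6.78 points. Closeness to a shared peak fell to 0.0271 points at equal lengths, to 0.138 points at p at most 1e-06, and to -0.0231 points at p at most 1e-10, where the exon difference fell to 1.66 points. It was not run with the 50% cover rule.

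With 1 library left out, the region effects ranged from -0.18 to 0.28 (log2 number), -0.565 to 0.805 points (share), -14.6 to 4.87 bp (width), -0.0494 to 0.0601 (−log10 p) and -0.973 to 0.872 points (intergenic), and the genotype effect on the intergenic share from -1.93 to 0.592 points. In the replicate block, which exchanged labels between libraries of the same culture number, the region effect on width was 4.25 bp and no other effect turned round. Genotype effects there were a number ratio of 1.05, 0.179 points (share) and 0.9 bp (width). The main values were 1.23, 0.937 points and 19.4 bp. Region effects on number and share were larger in the block, at a ratio of 1.23 and 0.843 points, against 1.02 and 0.0999 points. Their exact permutation p-values in the block were 0.375 and 0.281. Over merged peak calls as a whole, libraries of the same number showed almost no correlated deviation (r of -0.069 to 0.0638 over 11 pairs). These values cannot show that a culture number carried nothing in common. The 3 libraries of culture 51 had high X and low Y values together. Depth is unknown, and list length was the only measure of yield.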
